A study of Mus musculus with 6 samples.

Results

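The meiotic prophase genes described here are 34 genes, of 31053 in the count tables, most of whose products build chromosome structure or carry out recombination in the first meiotic division. They were chosen by gene symbol, and each of the 34 symbols matched 1 gene. Their levels were measured in germ cells by stage, with the other cells of the same libraries as background. They comprise 7 synaptonemal complex genes, 3 cohesin subunits, 2 axis surveillance genes, 5 break formation genes, 6 strand exchange genes, 4 crossover genes, 4 telomere attachment genes and 3 other germ cell genes.

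Single-cell RNA-seq was done on 6 libraries, 1 per group, from a study of ovarian follicles made from mouse pluripotent stem cells. Of these, 5 are freshly isolated XX gonads of ICR mouse embryos at E10.5, E11.5, E12.5, E13.5 and E14.5. The last, Induced D6, holds gonad somatic cells derived from ES cells of 129svj x C57BL/6J background and cultured as aggregates for 6 days. Its medium held CHIR, BMP4 and EGF for 2 days, then retinoic acid, PD0325901 and SHH beside BMP4 and EGF for 2 days, then BMP4 and FGF9 for 2 days. The labels name no transgene or deletion and do not say how many embryos were pooled. With 1 library per group, stage and library cannot be told apart, nor can culture, strain and library for Induced D6. No test between groups was possible, and every interval below covers counting error only.

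In the mouse ovary, germ cells stop dividing by mitosis and enter meiotic prophase during fetal life, after retinoic acid and BMP signals switch on Stra8 and its partner Meiosin. Homologous chromosomes then form cohesin-based axes, break and repair their DNA by recombination, tether their telomeres to the nuclear envelope and are joined by the synaptonemal complex. The somatic cells around them, the supporting and stromal cells of the gonad, divide by mitosis and do not enter this programme.

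Between 2661 and 7067 cells per library were kept, from libraries of 37606947 to 52146419 unique molecular identifiers (UMIs, each a count of 1 captured RNA molecule). Cells were clustered with the 34 genes left out, and clusters were called germ-cell-like from 12 germ cell markers, among them Dazl, Ddx4 and Dppa3. This gave 18, 311, 581, 1396 and 1163 germ-cell-like cells from E10.5 through E14.5 and none in Induced D6, where no such call was made. The median germ-cell-like cell held 11974.5, 21703, 17168, 13832 and 9837 UMIs in that order, and the median other cell of each gonad library between 6405 and 11117. At E10.5 the 5928 other cells held clusters led by Pax1 and Meox1 (761 cells), Pax3 and Myog (303 cells) and Tubb3 and Fabp7 (219 cells). A cluster led by Aldh1a2, Wt1 and Lhx9 held 506 of them. Differences between the other cells of E10.5 and of later stages therefore cannot be tied to stage alone. Levels are UMIs of a gene per 1000000 UMIs of all genes in the pooled cells of a class (CPM). Since the reads tag the 3′ end of a transcript, levels of different genes are not per-length levels and are not ranked against each other. E13.5 and E14.5 shared 114 cell barcodes, 2.44% of the smaller library, against 17 to 72 for the other pairs of libraries. The source of the shared barcodes was not tested. Without those cells none of the 34 genes' E14.5 levels moved beyond its counting interval, while under a stricter first rule for naming germ cell clusters 32 moved, 7 of them by over 1.5 times and at most 2.09-fold.

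As a sum, the 34 genes made up 799.7 (95% interval 778 to 822) CPM of germ-cell-like RNA at E11.5. On the following 3 days the sum was 1279.7 (95% interval 1258 to 1302), 3606 (95% interval 3579.6 to 3632) and 13052 (95% interval 12985 to 13119.7) CPM. The 18 germ-cell-like cells of E10.5 gave 587 CPM (95% interval 490.1 to 698), from 128 UMIs. There 1 UMI stood for 4.59 CPM, so of the single genes only Syce2 and, from very few UMIs, Tex15 are given for these cells. In the other cells of each library, which at E10.5 included clusters led by muscle and neural genes, the same sum was 127, 191, 172 and 188 CPM from E10.5 to E13.5. It was 360.0 CPM at E14.5 and 156 CPM in Induced D6. The sum in germ-cell-like cells thus rose at each daily step from E11.5, and the other-cell sum stayed under it in every gonad library. Over the same days the 12 germ cell markers summed to 6623, 5986, 3583 and 2021 CPM in germ-cell-like cells.

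A gene was called changed where its level differed at least 4-fold and reached 10 CPM in either class. From E11.5 to E12.5, 15 of the 34 genes reached that level and 0 were called higher or lower, against 0.193% of all genes tested called higher and 0.0826% lower. From E12.5 to E13.5, 29 reached it and 17 were called higher, against 2.81% of all genes. From E13.5 to E14.5, 32 reached it and 16 were called higher, against 2.17%. Over the whole span from E11.5 to E14.5, 28 of the 34 were called higher, against 14.4%. With 50 CPM required in place of 10, the count from E12.5 to E13.5 was 6, against 1.38% of all genes. Under the first naming rule, which left 491 germ-cell-like cells at E14.5, the count from E13.5 to E14.5 was 9, against 0.882%. Under the naming rule used, but with a 2-fold line, the count from E13.5 to E14.5 was 28, against 11.6%. None of the 34 was called lower in any of these 3 comparisons, where 0.498%, 3.88% and 11.8% of all genes were. With a count of 0 set to 3 counts, the median log2 ratio of all 34 genes was 0.97, 2.17 and 1.94 over the 3 daily steps and 5.49 over the whole span. The medians of all genes tested were -0.07, 0.19, -0.04 and 0.06. Of the 34 genes, 32 were at their highest at E14.5, and Mnd1 and Psmc3ip were at theirs at E11.5. At E13.5, 17 genes were under 25% of their E14.5 level, 12 were between 25% and 50% of it and 5 were above.

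**Figure D1:**
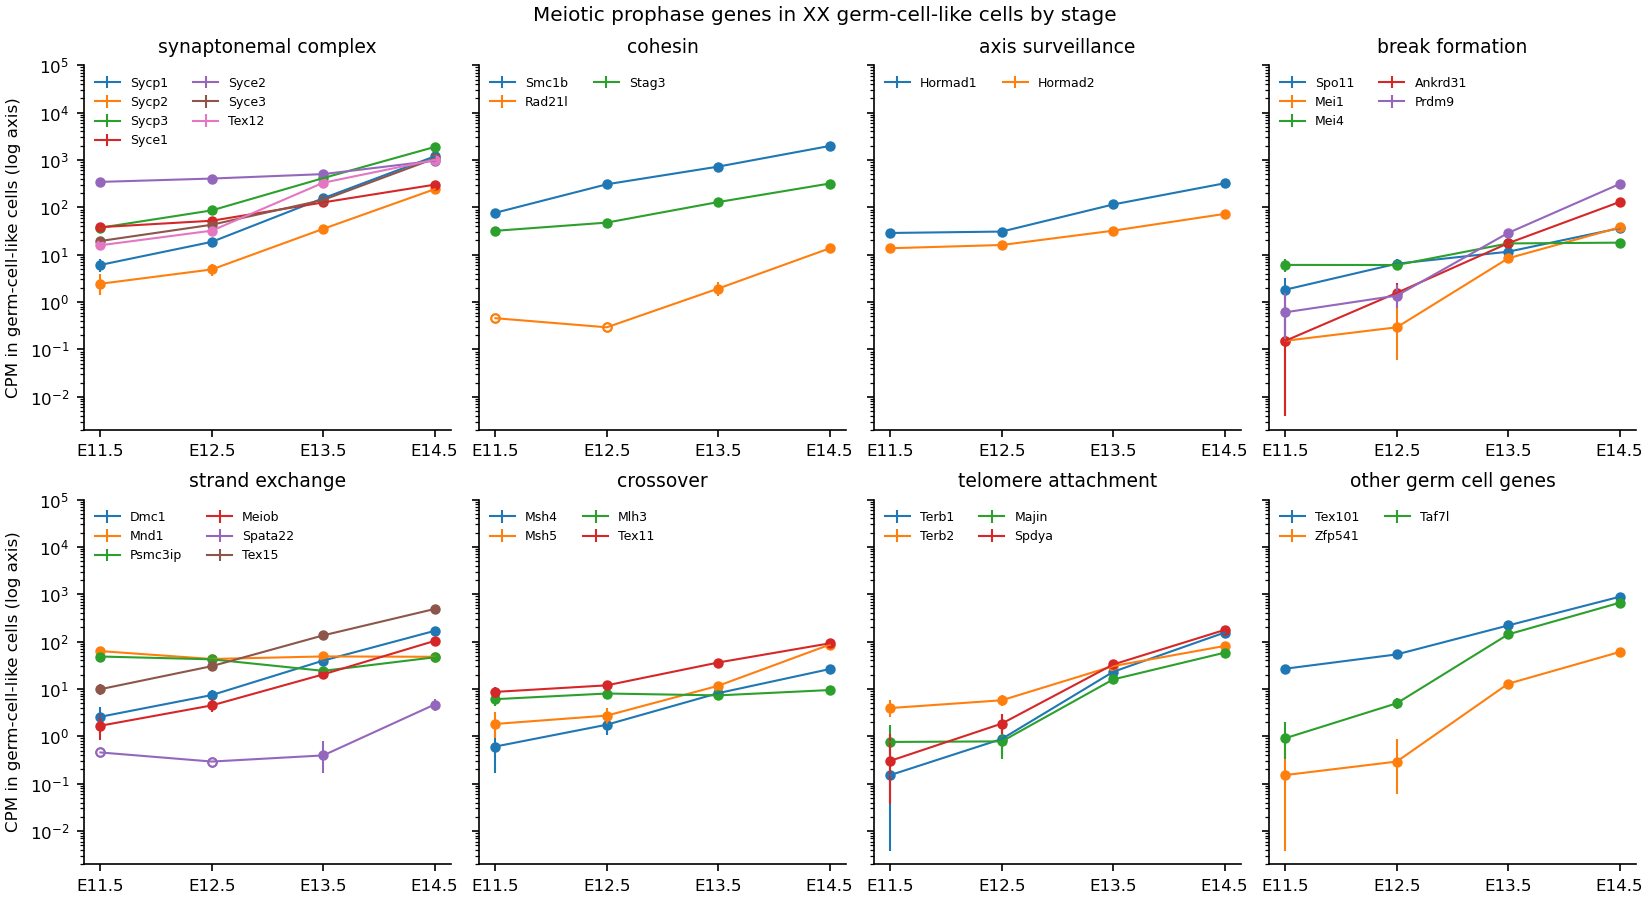
Level of each of the 34 genes in germ-cell-like cells, in CPM on a log axis, by embryonic stage, in a panel for each role. Points are 1 library each, bars are exact 95% Poisson intervals, and hollow points stand for 0 UMIs drawn at the limit of 3 counts. Most lines climb from E11.5 to E14.5, while Mnd1 ends below its start and Psmc3ip dips at E13.5 and recovers.

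Promoters are shown because most of these genes rose together. RefSeq windows of GRCm38.p6 (250 bases before to 50 after the start) were found for 28 of the 34. Spo11, Meiob, Tex15, Tex11, Terb2 and Majin had none in that table. The 3 motifs below were searched on both strands. The motifs were CNCCTCAG, known as the motif of STRA8 with MEIOSIN; CACGTG, the E-box bound by MGA with MAX; and GCGGGA, the E2F6 motif. CNCCTCAG was present for 7 of the 28 genes (25%, against 9.12% of 27025 genes with windows of the same length), namely Hormad2, Msh5, Prdm9, Spdya, Syce2, Sycp1 and Tex12. CACGTG was also present for 7 (25%, against 8.09%), namely Hormad1, Stag3, Syce2, Sycp1, Sycp3, Taf7l and Tex12. GCGGGA was present for 15 (53.6%, against 22.05%). The 33 windows of these 28 genes held a median of 18 CpG dinucleotides, against 7 over all 32851 windows. Their median GC content was 60.7%, against 52.7%. CACGTG and GCGGGA each hold a CpG, and the shares over all genes were not matched for CpG or GC content. The differences in motif share were not tested. Matches of CNCCTCAG and GCGGGA overlapped in 41 of all windows, and those of CACGTG and GCGGGA in 2. A match is a description of the letters and no evidence of binding.

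The upstream 250 bases of 5 genes follow, 5′ to 3′ on the gene's strand, with matches to the 3 motifs or their reverse complements in capitals. They are those of Sycp3, Smc1b and Prdm9, which climbed steeply, of Syce2, which was high from the start, and of Taf7l, which also had UMIs in somatic cells. They were picked after the levels were seen. For Syce2 and Prdm9 only 1 of 2 windows is shown. The Syce2 window not shown holds 1 match of CNCCTCAG, 1 of CACGTG and 2 of GCGGGA, counted over the whole window. The Prdm9 window not shown holds 0, 0 and 1 in that order.
Sycp3, chr10:88459337-88459586, plus strand, CACGTG 64 to 59 and 43 to 38 bases before the start and GCGGGA 147 to 142 bases before it: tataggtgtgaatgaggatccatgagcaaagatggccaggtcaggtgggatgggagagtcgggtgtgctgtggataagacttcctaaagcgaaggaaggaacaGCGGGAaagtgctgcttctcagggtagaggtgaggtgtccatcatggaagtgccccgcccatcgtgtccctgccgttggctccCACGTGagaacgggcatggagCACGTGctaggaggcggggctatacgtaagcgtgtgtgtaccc
Smc1b, chr15:85131958-85132207, minus strand, GCGGGA on the opposite strand 47 to 42 bases before the start: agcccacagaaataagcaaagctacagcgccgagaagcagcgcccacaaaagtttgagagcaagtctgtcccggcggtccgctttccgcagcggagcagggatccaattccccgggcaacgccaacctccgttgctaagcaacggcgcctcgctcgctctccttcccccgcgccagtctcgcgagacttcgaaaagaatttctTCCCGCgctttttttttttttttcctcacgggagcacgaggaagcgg
Prdm9, the second of its 2 windows, chr17:15564355-15564604, minus strand, GCGGGA on the opposite strand 46 to 41 and CNCCTCAG 41 to 34 bases before the start, sharing 1 base: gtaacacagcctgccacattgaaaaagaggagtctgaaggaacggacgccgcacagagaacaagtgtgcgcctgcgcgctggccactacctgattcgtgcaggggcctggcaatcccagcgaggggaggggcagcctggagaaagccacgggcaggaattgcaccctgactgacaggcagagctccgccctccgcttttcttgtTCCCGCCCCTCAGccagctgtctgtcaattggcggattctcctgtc
Syce2, the first of its 2 windows, chr8:84871861-84872110, plus strand, GCGGGA on the opposite strand 115 to 110 bases before the start: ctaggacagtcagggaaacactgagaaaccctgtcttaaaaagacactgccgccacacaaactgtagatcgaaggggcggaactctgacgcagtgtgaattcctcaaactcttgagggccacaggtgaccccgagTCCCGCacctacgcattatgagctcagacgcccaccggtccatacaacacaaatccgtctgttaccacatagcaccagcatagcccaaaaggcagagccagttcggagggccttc
Taf7l, chrX:134476491-134476740, minus strand, CACGTG 49 to 44 bases before the start: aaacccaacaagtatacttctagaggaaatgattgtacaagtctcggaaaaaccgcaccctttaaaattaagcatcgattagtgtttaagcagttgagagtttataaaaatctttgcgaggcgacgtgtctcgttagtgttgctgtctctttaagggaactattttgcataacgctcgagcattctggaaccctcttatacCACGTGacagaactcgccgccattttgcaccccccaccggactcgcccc

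Of the 7 synaptonemal complex genes, all but Syce2 were called higher at E14.5 than at E11.5, and Syce2 had a high level from the start. Sycp1 (chromosome 3, 102818499 to 102936100, minus strand), the transverse filament that spans the complex, measured 6.09, 18.7, 156 and 1192 CPM from E11.5 through E14.5. Its E14.5 level was 196-fold (95% interval 144 to 274) its E11.5 level. Sycp3 (chromosome 10, 88459569 to 88473236, plus strand), a lateral element protein that coats the axis, measured 37.1, 86.3, 415 and 1884 CPM, a rise of 50.7-fold (95% interval 44.7 to 57.8). The 2 genes differed in their last step: Sycp1 rose 7.66-fold from E13.5 to E14.5 and Sycp3 4.54-fold. Sycp2, the partner of Sycp3 in the lateral element, measured 2.44, 4.89, 35.2 and 242 CPM. Of the central element genes, which encode the proteins that hold the transverse filaments together, Syce3 measured 19.5, 42.9, 144 and 1075 CPM and Tex12 15.8, 32.2, 331 and 1008 CPM. Their timing differed, since Tex12 made its largest step into E13.5, at 10.3-fold, and Syce3 into E14.5, at 7.49-fold (95% interval 7.19 to 7.80). Syce1, another central element gene, measured 38.2, 52.1, 127 and 301 CPM and rose 7.88-fold (95% interval 6.93 to 9.0). Syce2 (chromosome 8, 84872111 to 84888221, plus strand), which pairs with Tex12 in the central element, measured 345, 405, 503 and 965 CPM. Its E14.5 level was 2.80-fold (95% interval 2.68 to 2.93) that of E11.5, under the 4-fold line, and the 18 germ-cell-like cells of E10.5 already gave 404 CPM, from 88 UMIs.

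The meiotic cohesin subunits, which hold sister chromatids together along the axis, differed in when they were first detected. Smc1b (chromosome 15, 85064689 to 85131964, minus strand), the meiotic form of the Smc1 subunit, measured 76.9, 307, 725 and 1977 CPM. Of the 15 genes that reached 10 CPM by E12.5 it had the largest ratio of E12.5 to E11.5, 3.99-fold (95% interval 3.63 to 4.39), just short of the 4-fold line, and its overall rise was 25.7-fold (95% interval 23.5 to 28.1). Stag3, the meiotic stromal antigen subunit, measured 32.0, 47.6, 129 and 318 CPM. Rad21l, an alpha-kleisin that closes the cohesin ring, had 0 UMIs until E13.5, when it measured 1.93 CPM, and reached 13.6 CPM a day later. Against the limit of 3 counts over the E11.5 class, that is at least 29.9-fold higher. Smc1b was thus well detected at E12.5, where Rad21l was not detectable at this depth.

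The axis surveillance genes Hormad1 and Hormad2 encode HORMA domain proteins that mark chromosome axes not yet paired. Hormad1 measured 28.8, 30.8, 115 and 322 CPM and Hormad2 13.7, 16.0, 32.2 and 72.7 CPM. Their ratios of E12.5 to E11.5 were 1.07-fold (95% interval 0.891 to 1.29) and 1.17-fold (95% interval 0.900 to 1.53), and they were 11.2-fold (95% interval 9.67 to 13) and 5.31-fold (95% interval 4.27 to 6.68) higher at E14.5 than at E11.5.

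The break formation genes other than Mei4 were under 2 CPM at E11.5. Prdm9 (chromosome 17, 15543079 to 15564354, minus strand), the histone methyltransferase that marks the sites of recombination, measured 0.609, 1.37, 28.9 and 311 CPM, the first value from 4 UMIs. Its largest steps were the last 2, 21.1-fold into E13.5 and 10.8-fold (95% interval 9.87 to 11.8) into E14.5. Ankrd31, which helps place breaks on the sex chromosomes, measured 0.152, 1.56, 17.5 and 129.8 CPM, with 1 UMI at E11.5. Mei1, needed for break formation, also had 1 UMI at E11.5 and measured 0.152, 0.293, 8.40 and 37.7 CPM. Ratios against so few counts are loose: for Mei1 the E14.5 level was 248-fold (95% interval 44.2 to 9799) the E11.5 level. Spo11, which cuts the DNA, measured 1.83, 6.45, 11.6 and 36.3 CPM and was 19.9-fold (95% interval 11.3 to 38.8) higher at E14.5 than at E11.5. Mei4, also needed for break formation, did not follow the other 4. It measured 6.09, 6.06, 17.3 and 18.0 CPM, and its E14.5 level was 2.95-fold (95% interval 2.09 to 4.26) that of E11.5.

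The strand exchange genes fell into 3 patterns. Dmc1, the meiotic recombinase (chromosome 15, 79561497 to 79605109, minus strand), Meiob, which binds single-stranded DNA, and Tex15, needed for loading of recombinases, rose with the rest. Dmc1 measured 2.59, 7.43, 39.7 and 169 CPM, Meiob 1.67, 4.5, 20.3 and 103 CPM and Tex15 9.89, 30.3, 135 and 489 CPM, with overall rises of 65.2-fold (95% interval 40.6 to 112), 61.8-fold (95% interval 34.4 to 124) and 49.4-fold (95% interval 38.7 to 64.1). Mnd1 and Psmc3ip, whose products form the heterodimer that assists Dmc1, were not called at any step. Mnd1 (chromosome 3, 84087933 to 84155786, minus strand) measured 63.0, 42.9, 48.6 and 47.8 CPM, and its E14.5 level was 0.758 (95% interval 0.666 to 0.865) that of E11.5. Psmc3ip (chromosome 11, 101091823 to 101095436, minus strand) measured 48.4, 42.2, 24.1 and 46.6 CPM, and its E13.5 level was 0.571 (95% interval 0.501 to 0.652) that of E12.5. Its E14.5 level was 0.963 (95% interval 0.836 to 1.11) that of E11.5, an interval that spans equality. Spata22, the partner of Meiob, had 0 UMIs until E13.5, when it measured 0.396 CPM, was at 4.70 CPM a day later, and never reached 10 CPM. The annotation places Spata22 over another protein-coding gene on the same strand, Gm49340, so its counts are uncertain.

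Of the crossover genes, Msh4 and Msh5, which form a clamp that stabilises recombination intermediates, measured 0.609, 1.76, 8.16 and 26.3 CPM and 1.83, 2.74, 11.7 and 86.0 CPM. Their overall rises were 43.2-fold (95% interval 16.7 to 159.5) and 47.1-fold (95% interval 26.8 to 91.5). Tex11, an X-linked gene that promotes crossovers, measured 8.68, 11.9, 36.2 and 91.9 CPM. Mlh3, which resolves crossovers late in prophase, measured 6.09, 8.02, 7.32 and 9.49 CPM and at no stage reached 10 CPM. Msh4, Msh5 and Tex11 thus passed the 4-fold line between E11.5 and E14.5, and Mlh3 did not reach the level at which a call was made.

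The 4 telomere attachment genes were all under 10 CPM at E11.5 and E12.5 and rose after that, by unlike amounts. Terb1 (chromosome 8, 104446719 to 104509910, minus strand), Terb2 and Majin encode the complex that ties telomeres to the nuclear envelope, and Spdya encodes an activator of Cdk2 found at telomeres. Terb1 measured 0.152, 0.880, 23.0 and 155 CPM, with 1 UMI at E11.5. Terb2 measured 3.96, 5.77, 30.4 and 81.0 CPM, Majin 0.761, 0.782, 15.9 and 58.4 CPM and Spdya 0.304, 1.86, 32.9 and 176 CPM. Each of the 4 was called higher at E13.5 than at E12.5, by 26.2-fold, 5.27-fold, 20.3-fold and 17.7-fold. Their sum went from 5.18 CPM at E11.5 to 471 CPM at E14.5.

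The last 3 genes are known from germ cells but are not part of the structures above. Tex101, a surface glycoprotein of germ cells, measured 26.8, 53.7, 219 and 884 CPM. Zfp541, a zinc finger protein of prophase spermatocytes, measured 0.152, 0.293, 12.9 and 60.4 CPM, with 1 UMI at E11.5. Taf7l (X chromosome, 134460118 to 134476490, minus strand), a germ cell relative of the general transcription factor subunit Taf7, measured 0.913, 4.99, 142 and 661 CPM, the first from 6 UMIs. Its rise into E13.5 was 28.5-fold (95% interval 21.6 to 38.4). All 3 were called higher at E14.5 than at E11.5.

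The rise was also seen cell by cell. Each cell was thinned to 3000 UMIs, which left out 12, 16, 42 and 114 shallower germ-cell-like cells from E11.5 to E14.5. The median germ-cell-like cell then held a UMI of 2 of the 34 genes at E11.5 (quartiles 1 to 3) and of 3, 6 and 15 on the following days (quartiles 2 to 4, 4 to 9 and 12 to 16). Without thinning the medians were 7, 8, 14 and 22. At least 10 of the 34 were detected in 0 of 299 cells at E11.5 (which allows a share of up to 1.0%), 0 of 565 at E12.5 (up to 0.531%), 21.3% of cells at E13.5 and then 91.5%. The median other cell held a UMI of 0 of the 34 from E11.5 to E13.5 and in Induced D6, and of 1 at E14.5. Only 0.109% of 2760 other cells at E14.5 held 10 or more. At E13.5 the cells were spread from few to many of the genes, and by E14.5 most cells held 10 or more.

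**Figure D2:**
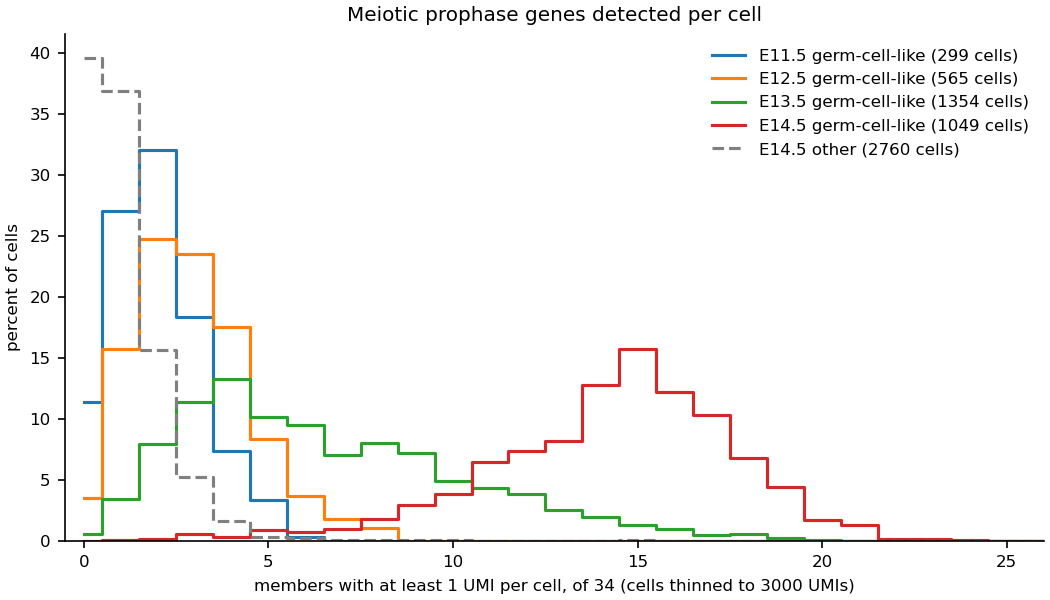
Number of the 34 genes with a UMI in each cell after thinning to 3000 UMIs (horizontal axis), as a percentage of the cells of its class (vertical axis), by stage. Germ-cell-like cells are drawn for E11.5 to E14.5 and other cells for E14.5 alone. Germ-cell-like cells move from a median of 2 genes at E11.5 to 15 at E14.5. The other cells of E14.5 have a median of 1 and reach 15 at most.

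In thinned cells Sycp3 was detected in 10.4%, 20.0%, 56.9% and 95.8% of germ-cell-like cells from E11.5 to E14.5, and in 0.172%, 0.353%, 2.91% and 10.3% of other cells. Smc1b was detected in 19.1%, 56.3%, 81.0% and 96.9% of germ-cell-like cells, against 0.129%, 0.353%, 2.22% and 7.61% of other cells. At E12.5 the exact (Clopper-Pearson) 95% interval was 52.1% to 60.4% for Smc1b and 16.8% to 23.5% for Sycp3. Without thinning, Sycp3 was detected in 48.9%, 65.1%, 89.0% and 99.4% and Smc1b in 66.2%, 92.8%, 97.3% and 97.6% of germ-cell-like cells. Prdm9 was detected in 0.334%, 0.531%, 7.75% and 54.9% of germ-cell-like cells and in 1.70% of other cells at E14.5. Dazl, a germ cell marker that other cells should lack, was detected in 0.345%, 0.471%, 4.58% and 5.14% of the other cells. As a percentage of the germ-cell-like level, the E14.5 other-cell level was 2.12% for Sycp3, 1.38% for Smc1b and 1.98% for Dazl.

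Within a stage the germ-cell-like clusters differed as well. These clusters were built without the 34 genes but with Stra8 and other meiotic genes, and cells of 1 library are not replicates. At E12.5 the 3 clusters held a summed level over all members of 1002 CPM (157 cells), 1296 CPM (343 cells) and 2028 CPM (81 cells). Across them Smc1b measured 211, 307 and 600.1 CPM and Stra8 13.3, 87.8 and 272 CPM. At E13.5 the 3 large clusters held 1814 CPM (633 cells), 3869 CPM (443 cells) and 8584 CPM (288 cells). Sycp3 followed with 148, 463 and 1132 CPM, and Prdm9 with 2.95, 16.0 and 129 CPM. In the same order Stra8 measured 312, 714 and 879 CPM, while the pluripotency gene Pou5f1 measured 308, 213 and 101 CPM. The E13.5 cluster with the highest sum lay above the lowest E14.5 cluster, which held 6056 CPM (226 cells).

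At E14.5 the order of the clusters was not the same for every gene. The sum over all members was 6056 CPM in a cluster of 226 cells, 12249 in 1 of 265 cells, 16208 in 1 of 381 cells and 15578 in 1 of 168 cells. A cluster of 123 cells with a median of only 2304 UMIs held 15180.4 CPM. In the first 4, in that order, Stra8 measured 831, 685, 215 and 33.4 CPM. Sycp1 ran the other way, at 333, 871, 1426 and 2281 CPM, and Syce3 likewise, at 283, 704, 1406 and 1807 CPM. Tex12, Taf7l and Mei4 instead peaked in the middle of that order. Tex12 measured 739, 1222, 1105 and 730.3 CPM. Taf7l measured 353, 811, 789 and 512 CPM, and Mei4 17.5, 28.2, 16.2 and 6.91 CPM. Psmc3ip, not called at any step between stages, was highest in the 168 cells, at 85.2 CPM, against 26.9 CPM in the 226.

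**Figure D3:**
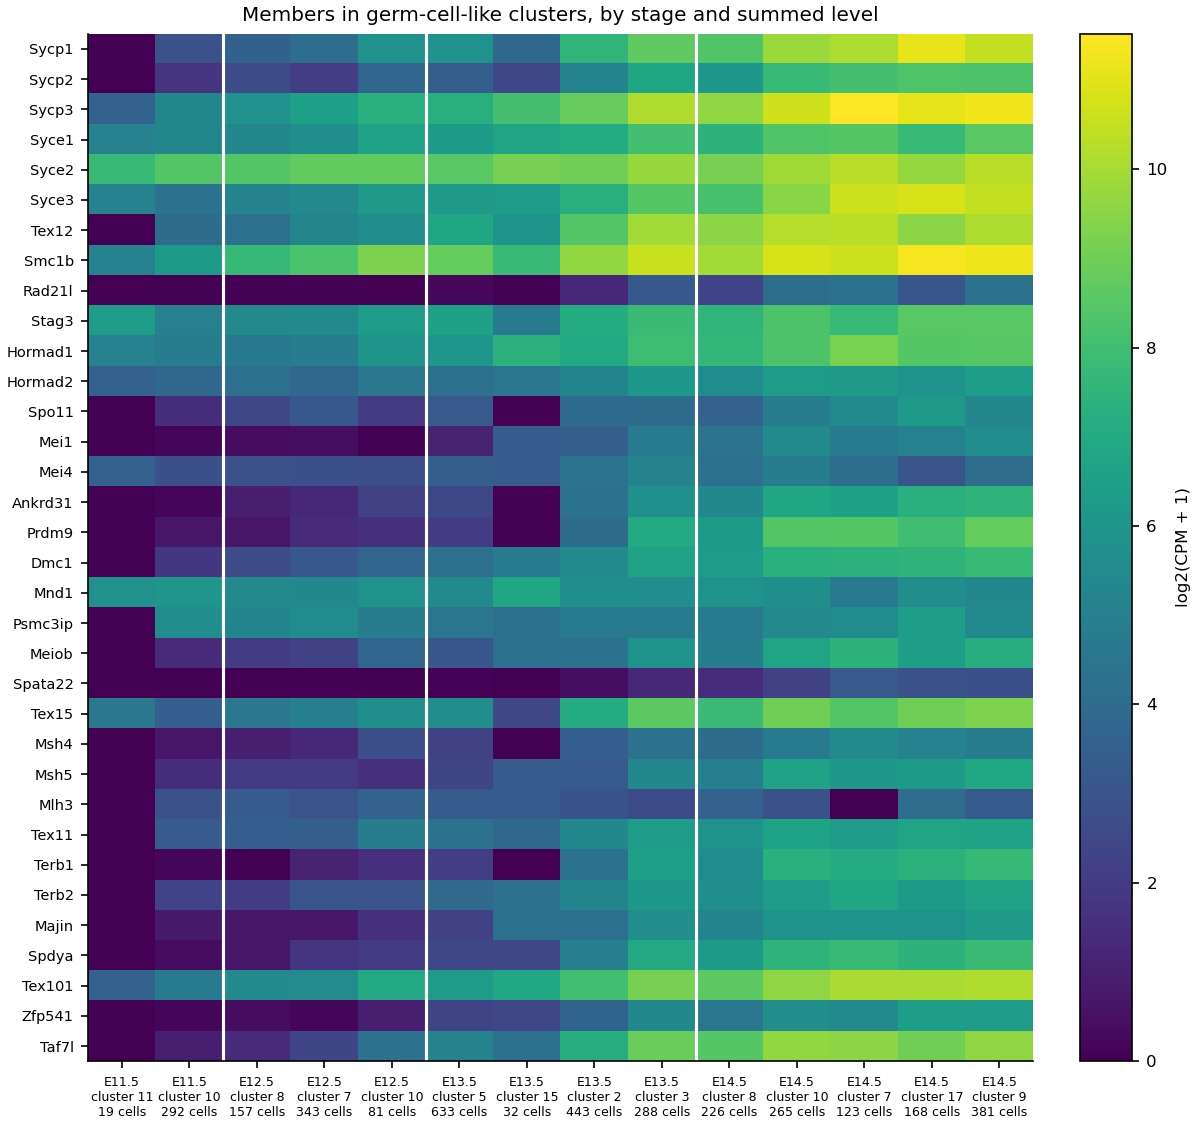
Level of each of the 34 genes (rows, by role) in each germ-cell-like cluster (columns, ordered by stage and then by the summed level of the genes), as log2(CPM + 1). White lines part the stages. By this ordering most genes brighten from left to right within E12.5, E13.5 and E14.5, while Mnd1 keeps much the same shade.

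Stra8, the retinoic acid target that starts meiosis, is not among the 34 genes, and germ-cell-like cells were compared by whether they held a Stra8 UMI after thinning. At E12.5 the 100 cells with Stra8 had a summed level of 1748 CPM, against 1183 CPM in the 465 without. At E13.5 the 947 cells with it had 4108 CPM and the 407 without had 2458 CPM. At E14.5 the order was turned, with 11539 CPM in 561 cells with Stra8 and 14773 CPM in 488 without. Sycp3 followed that turn, with 489.9 against 243 CPM at E13.5 and 1657 against 2124 CPM at E14.5. Sycp1 measured 867 CPM with Stra8 and 1579.7 CPM without at E14.5, while Taf7l was at 664 and 654 CPM. These are values of cells in 1 library per stage and were not tested.

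Against the other cells of the same gonad, most of the genes were called higher in germ-cell-like cells at E13.5 and E14.5. At least 4-fold higher were 10 of the 34 at E11.5, where 6.13% of all genes were, and 12, 28 and 30 on the following days, where 6.90%, 9.90% and 12.9% were. Of the 34, 14, 16, 29 and 32 reached 10 CPM in either class, so the counts also follow that limit. With no such limit 20 and 22 were called at E11.5 and E12.5, against 19.4% and 16.8% of all genes. With 50 CPM required, 2, 5 and 12 were called on the first 3 of these days, against 4.93%, 6.06% and 9.52%. Only Taf7l was called lower, at E11.5 and E12.5, where 16.2% of all genes and 1311 of 8734 genes were. At E13.5 and E14.5, where 12.6% and 20.6% of all genes were lower, 0 of the 34 were. The median log2 ratio of all 34 was 3.50, 4.22, 4.93 and 5.54 over the 4 stages, and that of all genes tested -0.09, -0.02, 0.32 and 0.13. At E14.5 the ratio was 47.2-fold (95% interval 44.2 to 50.4) for Sycp3, 72.7-fold (95% interval 67.3 to 78.7) for Smc1b, 70.4-fold for Sycp1 and 74.2-fold for Terb1. Under the first naming rule, which left 491 germ-cell-like cells at E14.5 and counted the rest of the 1163 as other cells, 2 of the 34 were called, against 2.34% of all genes. The 4 genes without a call at E14.5 were Mnd1 at 3.82-fold (95% interval 3.31 to 4.42), Psmc3ip at 1.91-fold (95% interval 1.70 to 2.16), and Mlh3 and Spata22, which did not reach 10 CPM.

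**Figure D4:**
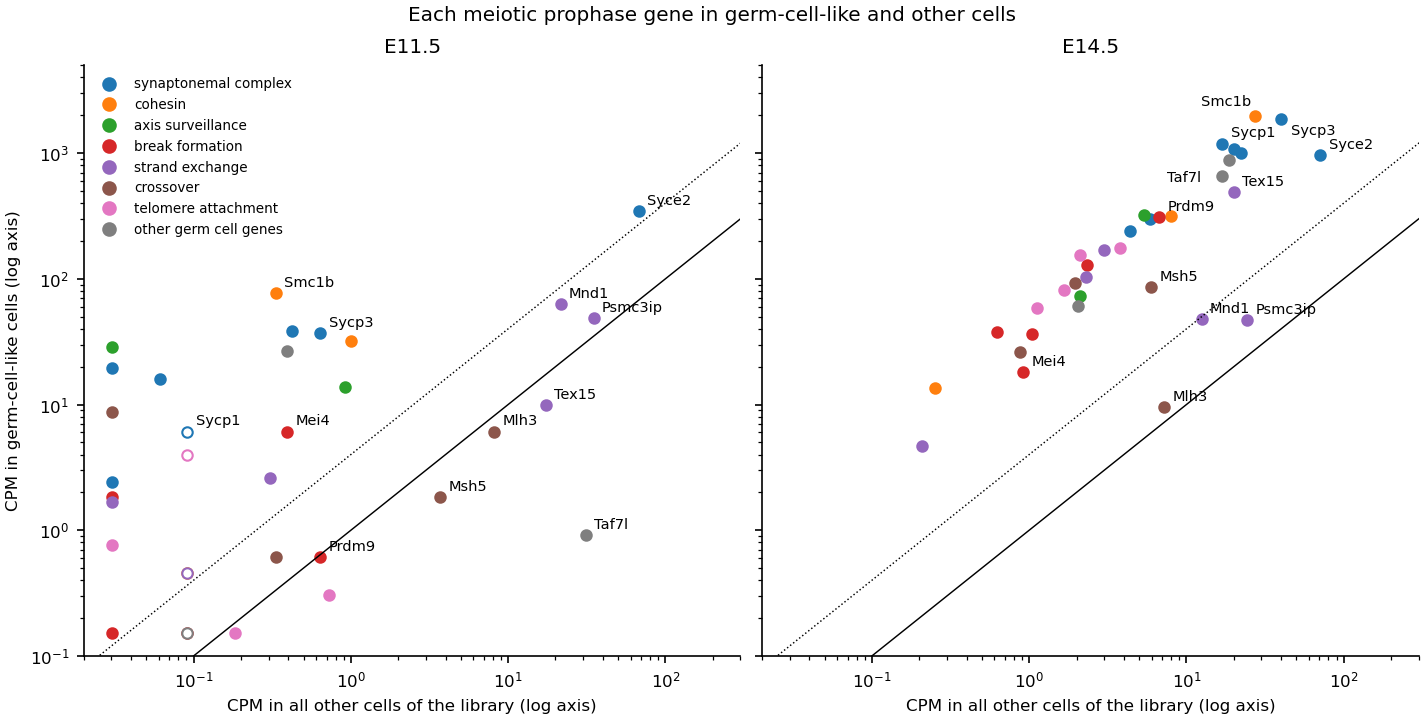
Level of each of the 34 genes in germ-cell-like cells (vertical axis) against other cells (horizontal axis) of the same gonad, in CPM on log axes, at E11.5 and at E14.5. The solid line marks equal levels, the dotted line a level 4-fold higher in germ-cell-like cells, and hollow points have 0 UMIs in a class, drawn at the limit of 3 counts. At E11.5 Taf7l lies far below the solid line, and at E14.5 the 30 genes called higher lie above the dotted one, as does Spata22, which is under 10 CPM.

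The other-cell levels are given beside those of the germ cell markers, since RNA of germ cells can reach the droplets of other cells. From E12.5 to E14.5 Sycp3 in other cells went from 0.921 to 9.25 and 39.9 CPM, Smc1b from 1.06 to 8.66 and 27.2 CPM and Sycp1 from 0.0354 to 1.82 and 16.9 CPM. Germ-cell-like cells held 16.6%, 26.6%, 41.5% and 31.6% of the UMIs of kept cells from E11.5 to E14.5, and the 12 germ cell markers summed to 18.1, 24.6, 81.7 and 57.5 CPM in other cells. At E14.5 the other-cell level was at most 5% of the germ-cell-like level for 28 of the 34 genes, with a median over the 34 of 2.15%. Of the 12 germ cell markers 8 were at most 5%, with a median of 3.18% and a range of 1.79% to 850.1%, Dnd1 and Nanos3 lying above 25% and Dazl at 1.98%. Mnd1, Psmc3ip and Mlh3 stood above the rest, at 26.2%, 52.3% and 76.3%, and Syce2, Msh5 and Mei4 at 7.37%, 6.95% and 5.12%. The number of the 34 genes with 0 UMIs in other cells was 10 at E10.5, 6 at E11.5, 5 at E12.5 and 0 at E13.5 and E14.5. The part of free RNA in the other-cell levels was not tested.

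A few of the genes had levels in other cells at every stage, also at E10.5, where only 18 germ-cell-like cells were present, and in Induced D6. Syce2 measured 51.5, 67.9, 62.1, 58.0 and 71.1 CPM in other cells over the 5 stages, and 66.2 CPM in Induced D6. Psmc3ip measured 48.6, 34.9, 35.3, 29.2 and 24.4 CPM and, in Induced D6, 23.5 CPM. Mnd1 measured between 9.18 CPM, at E13.5, and 21.6 CPM, at E11.5, and in Induced D6 14.8 CPM. Syce2, Psmc3ip and Mnd1 thus were above 5 CPM in each of the 6 other-cell classes. Mlh3 stayed between 5.06 and 8.15 CPM over the same 6. In single clusters, picked after their values were seen, Syce2 reached 142 CPM and Mnd1 36.4 CPM in an Induced D6 cluster led by the division genes Ube2c, Top2a and Cenpf. Psmc3ip reached 77.0 CPM in an E10.5 cluster led by the neural genes Tubb3 and Fabp7.

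Tex15 (chromosome 8, 33516738 to 33585582, plus strand) lay lower in germ-cell-like than in other cells at E11.5 and higher from E12.5. The 18 germ-cell-like cells of E10.5 gave 18.4 CPM, from 4 UMIs, too few to set against the other cells of that stage. Tex15 measured 1.72 CPM in other cells at E10.5, then 17.3, 18.7, 17.1 and 20.1 CPM from E11.5 through E14.5, and 6.98 CPM in Induced D6. Since the other cells of E10.5 differ in make-up from later ones, that first difference cannot be tied to stage alone. In germ-cell-like cells Tex15 measured 9.89, 30.3, 135 and 489 CPM from E11.5 through E14.5. In thinned cells it was detected in 3.34%, 9.38%, 32.5% and 72.6% of germ-cell-like and 4.78%, 4.82%, 4.62% and 5.43% of other cells. Among clusters picked for their values, it reached 35.9 CPM (65 UMIs, 158 cells) in an E11.5 cluster led by Kctd14, Akr1cl and Wnt6, and 31.9 CPM in an E13.5 cluster led by Fst. The source of the Tex15 level in other cells was not tested.

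Taf7l was the only 1 of the 34 genes with a call in both directions. In other cells it measured 0.0235 CPM at E10.5, 31.1, 20.2, 8.03 and 16.7 CPM from E11.5 through E14.5, and 29.0 CPM in Induced D6. In germ-cell-like cells it was at 0.0294 of the other-cell level at E11.5 (95% interval 0.0107 to 0.0641) and at 0.247 of it at E12.5, and then 17.7-fold and 39.5-fold above it at E13.5 and E14.5. In some clusters the other-cell UMIs came from few cells with many UMIs each. In an E11.5 cluster of 392 cells led by Fst, Akr1cl and Kctd14, 597 Taf7l UMIs lay in 50 cells, and 97.5% of them in 38 cells with 3 or more, up to 58 in a cell. In an Induced D6 cluster of 525 cells, 686 UMIs lay in 177 cells, 84.5% of them in 99 cells with 3 or more. At E14.5 they were spread more thinly: in a cluster of 480 cells, 93 UMIs lay in 71 cells, 24.7% of them in cells with 3 or more.

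The other meiotic genes were not higher in the 38 cells of that E11.5 cluster. Leaving out Taf7l, the members summed to 108 CPM in them (95% interval 89.0 to 131) and 117 CPM (95% interval 107 to 126) in the 342 cells with no Taf7l UMI. Dazl was at 0 and 1.39 CPM and Stra8 at 0 in both. Of the supporting cell genes, Fst was at 937 and 1049.7 CPM and Foxl2 was at 35.4 and 33.4 CPM, while the median cell held 22630 and 10365.5 UMIs. In the Induced D6 cluster the other members summed to 72.1 CPM in the 99 cells with 3 or more Taf7l UMIs and 103 CPM in the 348 with none, with Foxl2 at 59.6 and 54.2 CPM. The other clusters compared were not all alike. In an E12.5 cluster the other members summed to 149 CPM (95% interval 109 to 199) in 22 cells and 119.9 CPM (95% interval 109 to 131) in 348. In another Induced D6 cluster the supporting cell markers summed to 1515 CPM in 57 cells and 963 CPM in 636. Over all thinned cells, Taf7l was detected in 0%, 1.06%, 29.4% and 83.3% of germ-cell-like cells (0 of 299 at first) from E11.5 to E14.5, in 3.06%, 3.10%, 1.95% and 3.80% of other cells and in 3.90% of Induced D6 cells.

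Induced D6, made of ES cell-derived somatic cells, shows which of these genes have UMIs where the labels name no germ cells. Of the 34 genes, 6 were above 5 CPM there, namely Syce2, Psmc3ip, Mnd1, Tex15, Mlh3 and Taf7l. Tex12, Rad21l, Ankrd31, Spata22 and Tex101 had 0 UMIs in 7067 cells. The 12 germ cell markers summed to 42.9 CPM in this library. Sycp3 measured 0.565 CPM, Smc1b 0.761 CPM and Sycp1 0.0217 CPM there. In other cells at E11.5 they were at 0.638, 0.334 and 0 CPM. The same 6 genes were the ones above 5 CPM in other cells at E11.5.

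Genes of the same pathway outside the 34 were set beside them from 2 lists, chosen with earlier results of these data known. Of 28 other meiotic genes, 3 were called higher from E11.5 to E12.5, where none of the 34 and 0.193% of all genes were, namely Stra8 (49.9-fold), Meioc (9.17-fold), which sustains meiotic prophase, and Rec8 (4.98-fold), a meiotic kleisin. Stra8 measured 1.67, 83.5, 533 and 428 CPM from E11.5 through E14.5 and Rec8 7.31, 36.4, 104 and 20.4 CPM, so both peaked at E13.5. Rec8 was the only 1 of the 28 called lower at the last step, where 3.88% of all genes were, at 0.196 of its E13.5 level. Over the span from E11.5 to E14.5, 19 of the 28 were called higher, against the same 14.4% of all genes, with a median log2 ratio of 3.54. Of 13 relatives that serve dividing cells, 1 was called higher and 4 lower, against 14.4% and 11.8% of all genes, with a median of -0.16. Smc1a, the mitotic relative of Smc1b, went from 179.6 to 38.7 CPM while Smc1b went from 76.9 to 1977 CPM. Rad21, the mitotic kleisin, went from 164 to 24.5 CPM, and Rpa1, a subunit of the general single-stranded DNA-binding complex, from 98.2 to 16.7 CPM. Brca2, which loads recombinases in both kinds of cell, went up from 47.0 to 200.3 CPM. Taf7, the relative of Taf7l, was at 0.894 of its E11.5 level.

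**Figure D5:**
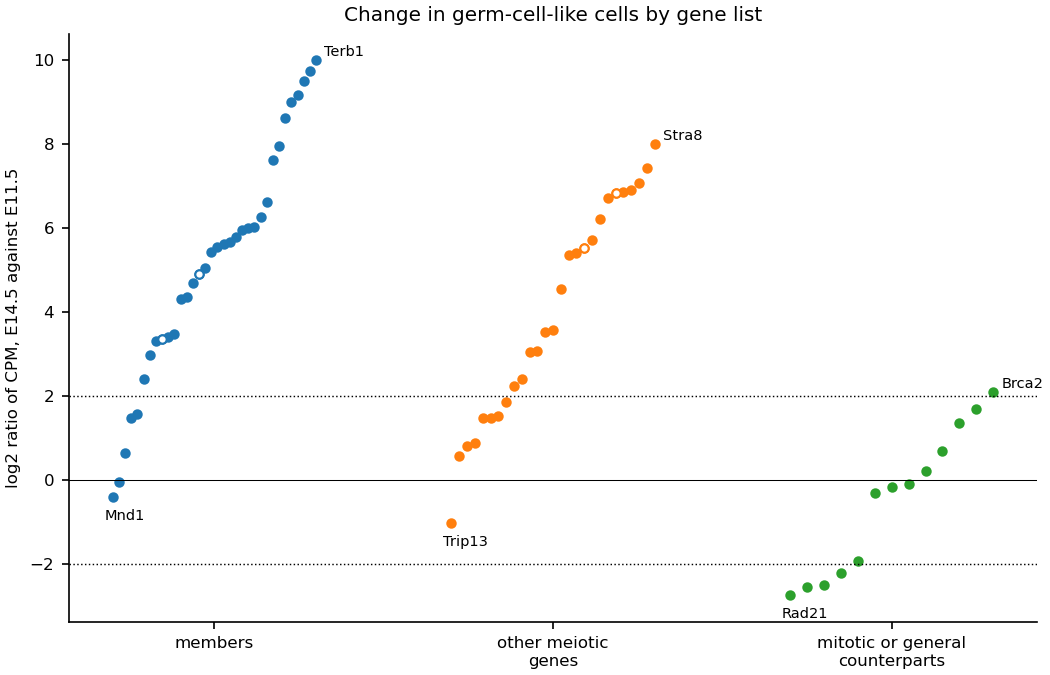
Log2 ratio of E14.5 to E11.5 germ-cell-like level for each of the 34 genes, the 28 other meiotic genes and the 13 relatives from dividing cells. Dotted lines mark 4-fold differences and hollow points are bounds from a count of 0. Of the 34, 28 were called higher, of the 28 other meiotic genes 19 were, and 4 of the 13 relatives were called lower.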

How the data were processed

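Single-cell RNA was measured with the 10x Chromium 3′ v2 kit in 6 mouse libraries, 1 per group, per the labels' protocols. The deposited matrices hold raw counts, the number of UMIs per gene and cell, made by the authors with Cell Ranger 3.0.2 on mm10, per the submitters' processing notes. Cells needed at least 500 genes and no more than 10% of UMIs from mitochondrial genes. Doublets were removed by Scrublet score, at 0.8% per 1000 cells, since its automatic threshold marked 0.0160% of cells at E10.5. Each library was clustered with scanpy 1.11.5 (numpy 2.4.6, leidenalg 0.10.2) on 2000 variable genes without the 34 members, 30 components, 15 neighbours and a resolution of 1.

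Germ-cell-like clusters were named from 12 markers. A first rule asked for 6 markers above the mean of the other clusters and let pluripotency markers compete. The rule used asks for at least 4 markers at 1.5 times the median of the other clusters, each in at least 10% of cells. Apart from the pluripotency set, no other of the 10 marker sets may have as large a share. Nor may any of them have more markers among the cluster's 10 leading genes. This second rule was set after the first rule's output was seen. A cluster under 1/3 of its library's median UMIs with no germ cell marker among its 10 leading genes stayed unnamed, and no Induced D6 cluster was named germ-cell-like.

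Counts were summed per class and divided by the class total (CPM). With 1 library per group no test was run, and a gene was called where levels differed 4-fold and reached 10 CPM in either class. Intervals are exact 95% Poisson, conditional binomial or Clopper-Pearson intervals, and a count of 0 was replaced by 3 counts over the class for bounds. All 34 members were to be described, and other genes were named from 2 lists of 28 other meiotic genes and 13 relatives, some of which are not reported here by name. Members and lists were chosen with earlier results of these data known. Positions are from GENCODE vM21 (GRCm38), which matched 31011 of 31053 gene IDs. Alternatives covered cell filters, doublets, naming rules, the level and fold thresholds, scaling and thinning. The calling code was tested on simulated data.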

Additional observations from a re-analysis of the deposited data

Results flagged for a closer look

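Of the 34 genes, 4 had germ-cell-like levels on opposite sides of the other-cell level at different stages, each beyond counting error. The differences between stages were not tested, since each stage is 1 library. For Taf7l the log2 ratio of germ-cell-like to other cells was -5.09 at E11.5 and -2.02 at E12.5, then 4.15 at E13.5 and 5.30 a day later. For Tex15 it was -0.81 at E11.5, then 0.70, 2.98 and 4.60 on the following days. For Msh5 it was -1.01 at E11.5, 2.11 at E13.5 and 3.85 a day later. Psmc3ip had 0.47, 0.26, -0.27 and 0.94 over the 4 days from E11.5. Taf7l, Tex15 and Msh5 thus crossed from below to above the other cells, and Psmc3ip lay below them at E13.5 alone.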

How the results depend on the processing

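Of 112 recomputed counts 98 stayed within 1.5 times the count given, of 40 summed levels 29 stayed within its counting interval, and of 44 medians per cell 39 stayed within the quartiles of the cells, among them 13 at E14.5 under the first naming rule. The first naming rule, added after the data were seen, mattered most: it left 491 germ-cell-like cells at E14.5, a sum of 9463 CPM there, 9 genes higher than at E13.5 (0.882% of all genes) and 2 higher than in other cells (2.34%). A gate of at least 4 germ cell markers per cell gave sums of 3361 and 11667 CPM at E13.5 and E14.5. With no doublets removed, the sums were 1255, 3529 and 13335 CPM from E12.5 to E14.5, and 1 gene was called at E12.5 (0.191% of all genes). The rule used then named 921 germ-cell-like cells at E14.5, against 1163 in the main setting. At most 5% mitochondrial UMIs gave 13409.8 CPM at E14.5, from 772 germ-cell-like cells. Leaving out the low-depth E14.5 cluster, an alternative added later, gave 12981 CPM. With 50 CPM required, 6 genes were called from E12.5 to E13.5 (1.38% of all genes), and 2, 5 and 12 against other cells from E11.5 to E13.5 (4.93%, 6.06% and 9.52%). With no filter, 4 were called from E11.5 to E12.5 (1.18%), and 20 and 22 against other cells at E11.5 and E12.5 (19.4% and 16.8%). A 2-fold line gave 7 from E11.5 to E12.5 (1.62%) and 28 from E13.5 to E14.5 (11.6%). Ratios taken from the median of all genes gave 1 call from E11.5 to E12.5 (0.220%). The mean of per-cell CPM also gave 1 (0.218%), with sums of 1317, 3901.5 and 13338 CPM. Thinning to 5000 UMIs gave a median of 18 genes per E14.5 cell, and no thinning 7, 8, 14 and 22 from E11.5 to E14.5. No paired analysis was possible because each group is 1 library, and for the same reason no replicate could be left out. At E10.5 the 18 germ-cell-like cells held 217903 UMIs, too few for levels of most single genes.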

Other observations

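In an E14.5 cluster of 30 cells with leading genes of red blood cells, picked after its values were seen, Sycp3 measured 158 CPM from 44 UMIs in 12 cells, and Tex15 measured 43.1 CPM from 12 UMIs. Taf7l measured 39.5 CPM there, from 11 UMIs. In this cluster 3 of the 12 germ cell markers also passed the marker limits of the naming rule. Its median doublet score was 0.0723, where the E14.5 clusters ranged from 0.0150 to 0.105. Whether these UMIs came from germ cells, as doublets or free RNA, was not tested.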
